A study of Homo sapiens with 12 samples.

Results

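The mRNAs of E2F1, E2F2, E2F3, E2F4, E2F7 and E2F8, of the RB family genes RB1, RBL1 and RBL2, and of FOXM1 were followed through MEK1/2 inhibition. These 10 genes were chosen by symbol from the 15798 genes of the count table, and all 10 were among the 12000 genes tested. HCT116 cells, an established human colorectal carcinoma line, received 100 nM trametinib, which blocks the kinases MEK1 and MEK2, for 24 h, or DMSO alone as solvent control. Each condition had 3 biological replicates, and 2 libraries were made per replicate, so that 12 libraries fell into 4 groups of 3. One library held input RNA, cytoplasmic RNA fragmented at random, and the other held ribosome footprints, the stretches of mRNA that a ribosome protected from RNase I. Cells of both conditions were exposed to cycloheximide, which halts elongating ribosomes, shortly before lysis. All results come from this single cell line at one dose and one time.

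E2F proteins are transcription factors that switch on genes for DNA replication at the entry into S phase. The pocket proteins encoded by RB1, RBL1 and RBL2 bind E2F proteins and repress their targets until cyclin-dependent kinases phosphorylate them, a step that growth factor signalling through ERK promotes via D-type cyclins. FOXM1 acts later in the cycle and, with B-MYB and the MuvB complex, drives genes needed for mitosis, while p107 or p130 (RBL1 or RBL2) joined to E2F4 and MuvB forms the repressive DREAM complex. E2F1 itself, like several other members, is a known E2F target.

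The promoters are shown because several of these genes are known E2F targets. Whether promoter sequence bears on the changes below was not tested. The last 120 bases before the transcription start were taken from RefSeq on build GRCh38.p14, 5′ to 3′ on the strand of the gene, for the 6 genes whose RefSeq start coincided with the annotated gene start. They cover chr20:33686386-33686505 (minus strand) for E2F1, chr1:23531234-23531353 (minus) for E2F2, chr6:20401759-20401878 (plus) for E2F3, chr16:67192035-67192154 (plus) for E2F4, chr12:77065570-77065689 (minus) for E2F7 and chr20:37095998-37096117 (minus) for RBL1. Capitals mark matches to the E2F consensus, read on both strands as any of the 4 words TTTCCCGC, TTTCGCGC, TTTGCCGC and TTTGGCGC, a match on the opposite strand being printed as its reverse complement.
E2F1: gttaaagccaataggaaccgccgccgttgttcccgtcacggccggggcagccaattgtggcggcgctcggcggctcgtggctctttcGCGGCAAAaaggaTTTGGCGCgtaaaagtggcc
E2F2: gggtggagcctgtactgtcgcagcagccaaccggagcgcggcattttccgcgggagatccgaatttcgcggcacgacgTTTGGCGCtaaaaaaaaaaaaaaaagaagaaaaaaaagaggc
E2F3: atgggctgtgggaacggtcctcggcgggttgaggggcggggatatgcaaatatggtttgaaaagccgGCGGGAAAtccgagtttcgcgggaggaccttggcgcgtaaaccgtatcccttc
E2F4: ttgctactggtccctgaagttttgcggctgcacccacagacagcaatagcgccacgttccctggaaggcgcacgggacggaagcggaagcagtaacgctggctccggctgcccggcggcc
E2F7: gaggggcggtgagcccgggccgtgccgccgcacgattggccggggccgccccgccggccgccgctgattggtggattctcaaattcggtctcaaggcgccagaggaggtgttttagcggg
RBL1: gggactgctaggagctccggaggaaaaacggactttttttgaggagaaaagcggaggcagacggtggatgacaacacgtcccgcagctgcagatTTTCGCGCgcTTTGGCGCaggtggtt

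Within the full window of 250 bases before to 50 after the start, E2F1 and RBL1 each held 2 E2F words and E2F2 and E2F3 each held 1. In E2F1 the words lay at positions -33 to -26, on the opposite strand, and -20 to -13, and in RBL1 at -26 to -19 and -16 to -9. E2F4 and E2F7 held 0, and E2F7 instead had 4 CCAAT boxes, as had E2F3, while E2F1 had 3. No E2F word overlapped a CCAAT box or a CHR motif. An E2F word was present in 3.31% of the 35116 RefSeq promoters searched, and a CCAAT box in 34.6%. The mitotic CHR motif TTTGAA, found in 15.2% of promoters, occurred in these 6 windows only once, in E2F3, at -65 to -60. A second RefSeq start of E2F3 lay 1735 bases into the annotated gene, and its window held 0 matches to any of these motifs. The RefSeq starts listed for RBL2 lay 494 and 1642 bases into the annotated gene, and the one for RB1 172706 bases into it, so these were not printed. E2F8 (chr11:19224063-19241620, minus strand) and FOXM1 (chr12:2857680-2877174, minus strand) had no entry. A match is a description of letters and does not show that a factor was bound.

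Input libraries held between 2276693 and 2845568 counts in reading frames, and footprint libraries between 10127477 and 19181588. Levels are given as CPM, the counts scaled to a common library size, where 1 CPM corresponds to 2.29 to 2.75 counts in input and 9.64 to 20.5 counts in footprints. The epithelial markers EPCAM, KRT8, KRT18 and CDH1 were present in every input library, at 69.2 CPM or more, whereas the intestinal cadherin CDH17 had at most 1 count in any input library. Of the markers of other cell types, PTPRC, PECAM1 and COL1A2 had at most 1 count per input library, COL1A1 had 14 to 36, and ALB was not among the genes listed. As a check of the labels, 10 of 10 ERK output genes were lower in trametinib in both assays, DUSP6 with an input log2 change of -7.64. DMSO replicate 1 stood apart from the other DMSO replicates in its level of G1/S genes. The summed level of 29 E2F-controlled G1/S genes was 3063 CPM in its input library against 5125 and 5429 CPM in replicates 2 and 3, and 4237 CPM in its footprint library against 8283 and 9175 CPM. Its footprint library also had the lowest value of the DMSO footprint libraries for 10 of the 10 genes described here. Its input library was lowest for 4 of the 10, beside 3 for each of the other DMSO input libraries. Results are therefore given without replicate 1 where that changes a call. Leaving out either of its libraries ended no call in input or footprints for these genes and added 1, E2F4 in footprints.

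In input RNA, 9 of the 10 genes fell and 1, RBL2, rose (edgeR quasi-likelihood test, adjusted p under 0.05), beside 15.5% of all 11994 genes tested that fell and 13.9% that rose. The median log2 change was -1.76, against 0.00 for all genes tested. E2F1, E2F7, E2F8 and FOXM1 changed most, while E2F4, RB1 and RBL2 moved by less than 1 log2 unit. In ribosome footprints 8 genes fell, RBL2 rose and E2F4 did not pass the test, beside 24.4% of 12000 genes that fell and 24% that rose, and the median log2 change was -2.16. The ratio of footprints to input, the ribosome density, passed the test for 0 of the 10 genes. DMSO and trametinib values did not overlap for any of the 10 genes in input, nor in footprints for any gene other than E2F4. The share of all genes without overlap was not counted, and groups of 3 can separate without any change. The scaling sets libraries against each other (TMM) and gives no absolute amounts, so these are changes relative to other mRNAs. In bulk RNA fewer cells in a given cell cycle state and less RNA per cell cannot be told apart.

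**Figure D1:**
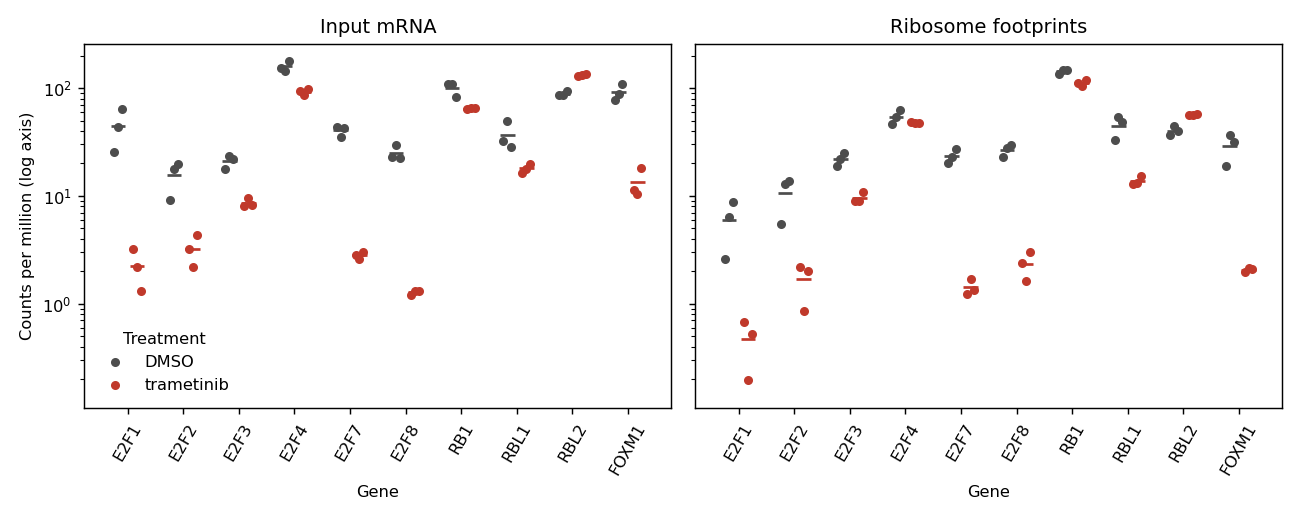
CPM of each gene (log axis) in input RNA (left) and ribosome footprints (right). Each point is a library, in the order of replicates 1 to 3, grey for DMSO and red for trametinib, and each bar is the mean of 3. The red points lie below the grey for every gene but RBL2, where they lie above, and E2F4 footprints, where they overlap.

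The activator E2Fs were described first. E2F1, which promotes S phase entry, lies on chromosome 20 (33675477-33686385, minus strand). Its DMSO input libraries held 70, 120 and 161 counts (25.6, 43.6 and 64.1 CPM) and its trametinib input libraries 8, 5 and 3 counts (3.22, 2.18 and 1.31 CPM). The lowest DMSO value, from replicate 1, was still well above the highest trametinib value. The log2 change of E2F1 input was -4.27 ± 0.41 (SE), a 19.2-fold reduction (adjusted p = 4.04e-06). Footprints of E2F1 were few, with 44, 62 and 149 counts (2.58, 6.43 and 8.75 CPM) in DMSO and 14, 3 and 7 counts (0.683, 0.196 and 0.526 CPM) in trametinib. They fell by 3.59 on the log2 scale (SE 0.54, adjusted p = 6.91e-04), with no overlap between the conditions.

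E2F2, a close relative of E2F1 with the same coding length of 1311 bases, was expressed at a lower level. Its input CPM was 9.14, 17.8 and 19.9 in DMSO and 3.22, 2.18 and 4.35 in trametinib, from 25 to 50 and from 5 to 10 counts. Its footprint CPM was 5.51, 12.9 and 13.7 in DMSO and 2.19, 0.849 and 2.03 in trametinib. As for E2F1, DMSO replicate 1 was lowest in its group in both assays, and the conditions did not overlap. E2F2 fell by 2.24 in input (SE 0.38, adjusted p = 5.89e-04) and by 2.63 in footprints (SE 0.42, adjusted p = 9.07e-04).

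E2F3, the third activator, fell least among them. Its input CPM was 17.9, 23.3 and 21.9 in DMSO and 8.04, 9.59 and 8.27 in trametinib. Its footprints reached 19.0, 21.8 and 25.1 CPM in DMSO and 8.97, 8.94 and 10.9 CPM in trametinib. Replicates lay close together, and the reductions were similar in size in the 2 assays. The log2 change was -1.28 ± 0.24 in input (adjusted p = 0.00122) and -1.20 ± 0.16 in footprints (adjusted p = 3.53e-04). The 95% confidence interval of its ribosome density change ran from -0.44 to 0.69.

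E2F4 is the E2F that mostly works as a repressor, bound to p107 or p130. It was the most abundant of the 6 E2F mRNAs. Input CPM was 153, 145 and 180 in DMSO and 93.7, 85.9 and 97.5 in trametinib, a log2 change of -0.79 ± 0.16 (adjusted p = 0.00180). Footprint CPM was 46.5, 53.7 and 63.3 in DMSO and 48.9, 47.8 and 47.1 in trametinib. In input the conditions were separate, whereas in footprints the 3 trametinib values fell within the DMSO range. The footprint change of -0.19 ± 0.13 did not pass the test (adjusted p = 0.260), with a 95% confidence interval from -0.48 to 0.11. The lowest DMSO footprint value was that of replicate 1, and without that library the change was -0.29 and passed the test (adjusted p = 0.0293).

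The atypical E2Fs, E2F7 and E2F8, repress E2F targets later in S phase and bind DNA without a DP partner. E2F7 input fell from 43.9, 34.9 and 43.0 CPM in DMSO to 2.81, 2.61 and 3.05 CPM in trametinib, a log2 change of -3.82 ± 0.27 (adjusted p = 1.67e-07). Its footprints fell from 20.1, 22.8 and 27.1 CPM to 1.22, 1.70 and 1.35 CPM, a log2 change of -4.04 ± 0.20 (adjusted p = 1.07e-06). The spread within each group was small beside a reduction of 14.1-fold in input and 16.4-fold in footprints. Counting error alone gave the input ratio, DMSO over trametinib, a 95% interval from 9.13 to 23.8, wider than that of the fit.

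E2F8 fell by a similar amount. Its DMSO input libraries held 63, 82 and 57 counts, and each of the 3 trametinib input libraries held 3 counts. The ratio of the summed, scaled counts, DMSO over trametinib, was 19.9, with a 95% interval from 10.3 to 44.1 that covers counting error only. Footprints gave a deeper view, with 22.9, 28.0 and 29.9 CPM in DMSO and 2.39, 1.63 and 3.00 CPM in trametinib, from 25 to 49 counts. The conditions were separate in both assays, with log2 changes of -4.26 ± 0.33 in input (adjusted p = 4.81e-07) and -3.53 ± 0.22 in footprints (adjusted p = 3.92e-06). The fitted 95% interval in input, -4.97 to -3.54, was narrower than the counting interval. The standard error of 0.33 is therefore too small at these counts.

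Seen per kilobase of coding sequence, the mix of E2F mRNAs changed. In DMSO input, E2F4 made up 60.4% ± 4.71 (SD, n = 3) of the summed CPM per kilobase of the 6 E2F mRNAs, and E2F1 15.4% ± 4.65. In trametinib input the shares were 86.2% ± 0.654 for E2F4 and 1.98% ± 0.850 for E2F1. In footprints E2F4 took 48.4% ± 2.34 in DMSO and 79.6% ± 2.54 in trametinib. E2F3 kept a similar share of input, 7.09% ± 0.954 in DMSO and 7.20% ± 1.12 in trametinib, whereas its share of footprints was 17.4% ± 1.02 in DMSO and 14.1% ± 1.456 in trametinib, without overlap. Shares of a sum are not independent of each other, and no test was made on them.

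The pocket protein mRNAs did not move together. RB1 (chr13:48303744-48599436, plus strand) encodes the retinoblastoma protein, which restrains the activator E2Fs. Its input CPM was 110, 109 and 83.6 in DMSO and 64.3, 64.9 and 64.8 in trametinib, a log2 change of -0.64 ± 0.17 (adjusted p = 0.00987). Its footprint CPM was 134, 147 and 148 in DMSO and 112, 105 and 119 in trametinib, a log2 change of -0.35 ± 0.11 (adjusted p = 0.0221). The groups did not overlap in either assay. The footprint call was lost when DMSO footprint replicate 2 or 3, or trametinib footprint replicate 1 or 2, was left out (adjusted p = 0.0508 to 0.0920), and with scaling to library totals (log2 change -0.17, adjusted p = 0.212), which shifted the median of all genes by 0.19.

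RBL1 encodes p107, a pocket protein that accumulates in cycling cells. Its input CPM was 32.6, 49.1 and 28.2 in DMSO and 16.5, 17.9 and 19.6 in trametinib. Its footprint CPM was 32.8, 53.5 and 48.6 in DMSO and 13.02, 13.3 and 15.2 in trametinib. DMSO replicate 2 was highest in both assays, and trametinib values lay below all DMSO values. RBL1 fell by 1.03 in input (SE 0.24, adjusted p = 0.00522) and by 1.70 in footprints (SE 0.19, adjusted p = 1.27e-04).

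RBL2 encodes p130, the pocket protein typical of quiescent cells, and it was the one gene of the 10 that rose. Its input CPM was 87.1, 86.9 and 93.1 in DMSO and 129, 131 and 136 in trametinib. Its footprint CPM was 36.6, 44.5 and 39.8 in DMSO and 56.6, 56.8 and 58.1 in trametinib. Every trametinib library exceeded every DMSO library of its assay. The log2 change was 0.57 ± 0.15 in input (adjusted p = 0.00965) and 0.51 ± 0.11 in footprints (adjusted p = 0.00483). Per kilobase, RBL2 made up 35.7% ± 4.94 (SD, n = 3) of the 3 pocket protein mRNAs in DMSO input and 57.2% ± 0.213 in trametinib input, while RB1 went from 49.0% ± 3.55 to 34.4% ± 0.681. In footprints RB1 held 66.7% ± 2.89 and 65.6% ± 0.923, while RBL1 went from 18.0% ± 2.85 to 7.04% ± 0.338 and RBL2 from 15.3% ± 0.670 to 27.3% ± 0.966.

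FOXM1, the forkhead factor of mitotic gene expression, fell in both assays. Its input libraries held 210, 242 and 276 counts in DMSO (76.8, 88.0 and 110 CPM) and 28, 24 and 42 counts in trametinib (11.3, 10.5 and 18.3 CPM). Its footprint libraries held 321, 357 and 544 counts in DMSO (18.8, 37.0 and 31.9 CPM) and 40, 33 and 28 counts in trametinib (1.95, 2.15 and 2.10 CPM). Every trametinib library lay below the DMSO range of its assay. The log2 change was -2.78 ± 0.24 in input (adjusted p = 1.16e-06) and -3.82 ± 0.27 in footprints (adjusted p = 8.49e-06), a reduction of 6.86-fold and 14.1-fold.

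**Figure D2:**
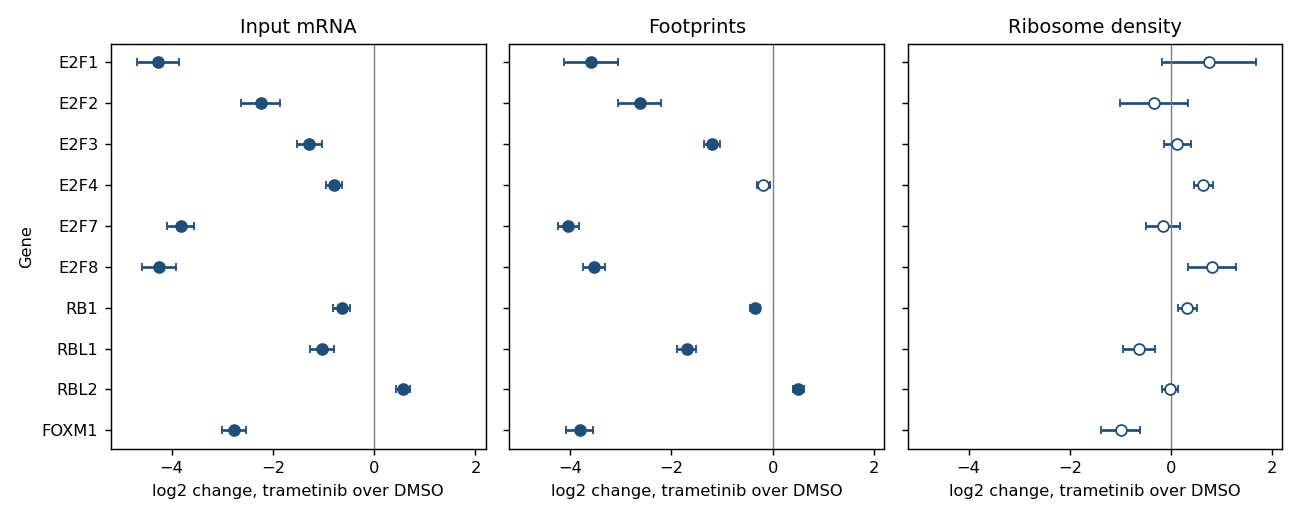
Log2 change, trametinib over DMSO, of the 10 genes in input RNA, footprints and ribosome density. Bars are ±1 standard error, derived from the log2 change and the edgeR F statistic. Filled points passed an adjusted p of 0.05 and open points did not. RBL2 alone lies above 0 in input and footprints, and all points for ribosome density are open.

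The order of mRNA levels was compared per kilobase of coding sequence. In DMSO input, E2F4 led with 129 ± 14.8 CPM per kilobase (SD, n = 3), followed by FOXM1 (40.0 ± 7.33), RB1 (36.2 ± 5.36), E2F1 (33.9 ± 14.7) and RBL2 (26.1 ± 1.03). E2F3, E2F7, E2F2, RBL1 and E2F8 followed at 15.1 to 9.68 CPM per kilobase. E2F4 was separate from FOXM1 and RBL2 from E2F3, whereas every other pair of neighbours overlapped between replicates. In trametinib input the order was E2F4 (74.5 ± 4.78), RBL2 (38.6 ± 1.00), RB1 (23.2 ± 0.118), E2F3 (6.19 ± 0.599), FOXM1, RBL1, E2F2, E2F1, E2F7 and E2F8 (0.489 ± 0.0223). The first 4 were separate from each other, E2F3 overlapped FOXM1 and FOXM1 overlapped RBL1.

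Footprints ranked the genes differently. RB1 (51.4 ± 2.81 CPM per kilobase) and E2F4 (44.01 ± 6.80) led in DMSO and overlapped, and E2F1 came last (4.52 ± 2.38), overlapping its neighbour E2F2. In DMSO input the mean of E2F1 ranked below those of E2F4, FOXM1 and RB1 alone, with replicates that overlapped those of RB1 and RBL2. In trametinib RB1 (40.3 ± 2.39) and E2F4 (38.7 ± 0.719) again led and overlapped, RBL2 (16.7 ± 0.245) was separate from both neighbours, and E2F1 was last at 0.357 ± 0.190, overlapping E2F7.

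Ribosome density, taken as footprint CPM over input CPM of the same replicate, differed widely between the genes. E2F1 had the lowest of the 10, at 0.101, 0.147 and 0.137 in DMSO replicates 1 to 3. Over the 8811 genes with a mean DMSO input of at least 10 CPM, the median ratio of group means was 0.982, and 0.715% of genes had a ratio at or below that of E2F1. FOXM1 and E2F4 were also low, with 6.62% and 7.85% of genes at or below them, as was RBL2 with 14.4%. RB1 had the highest mean of the 10, at 1.22, 1.34 and 1.78, with 72.4% of genes at or below it. Its replicates overlapped those of RBL1 and E2F8. RBL1 (1.27 ± 0.389, SD, n = 3), E2F8 (1.08 ± 0.205) and E2F3 (1.05 ± 0.107) lay near or above the median, and E2F2 (0.671 ± 0.0613) and E2F7 (0.581 ± 0.108) below it. This is a description of the control cells across genes. Base composition and fragment recovery can differ between genes, and their part in these ratios was not tested.

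Whether trametinib changed ribosome density was asked with the interaction of assay and treatment over 12 libraries. This fit took the libraries as independent, although input and footprints of a replicate came from one lysate. The density standard errors, intervals and p-values leave out that pairing. With a block by lysate, 0 of the 10 genes were called either. At an adjusted p under 0.05, 0 of the 10 genes were called by edgeR, and 0 by DESeq2 and by limma. Of all 12000 genes, 0.75% were called lower and 0.05% higher. At an unadjusted p under 0.05, 2 of the 10 passed in edgeR, E2F4 and FOXM1, in opposite directions, beside 930 of all 12000 genes. The median standard error of a density change was 0.28 on the log2 scale over all genes.

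E2F4 density was 0.304, 0.370 and 0.351 in DMSO and 0.522, 0.557 and 0.484 in trametinib, with no overlap. Its log2 change was 0.64 ± 0.19 (95% confidence interval 0.23 to 1.04, unadjusted p = 0.00425), which did not pass the adjustment over all genes (edgeR adjusted p = 0.233, and 0.0662 to 0.603 over the alternatives run). FOXM1 density was 0.245, 0.421 and 0.291 in DMSO and 0.173, 0.206 and 0.115 in trametinib, again without overlap. Its log2 change was -0.996 ± 0.384 (interval -1.82 to -0.18, edgeR unadjusted p = 0.0207, adjusted p = 0.488, and 0.0716 to 0.835 over the alternatives). With both libraries of DMSO replicate 1 left out, the changes were 0.57 for E2F4 (adjusted p = 0.221) and -1.12 for FOXM1 (adjusted p = 0.0824).

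RBL1 density, 1.01, 1.09 and 1.72 in DMSO and 0.790, 0.745 and 0.775 in trametinib, was separate between the conditions too. Its log2 change of -0.63 ± 0.32 had an interval from -1.31 to 0.05 (edgeR adjusted p = 0.701). For the remaining 7 genes the replicate ranges of the 2 conditions overlapped. The share of all genes with separate density ranges was not counted. Relative to other mRNAs, RBL2 density was nearly the same in both conditions, 0.453 ± 0.0512 and 0.433 ± 0.00513 (SD, n = 3). Its log2 change was -0.03, with an interval from -0.37 to 0.31. For E2F1 (0.75 ± 0.93) and E2F8 (0.81 ± 0.47) the standard errors were the largest apart from that of E2F2, and the trametinib input libraries held 3 to 8 counts for E2F1 and 3 for E2F8.

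**Figure D3:**
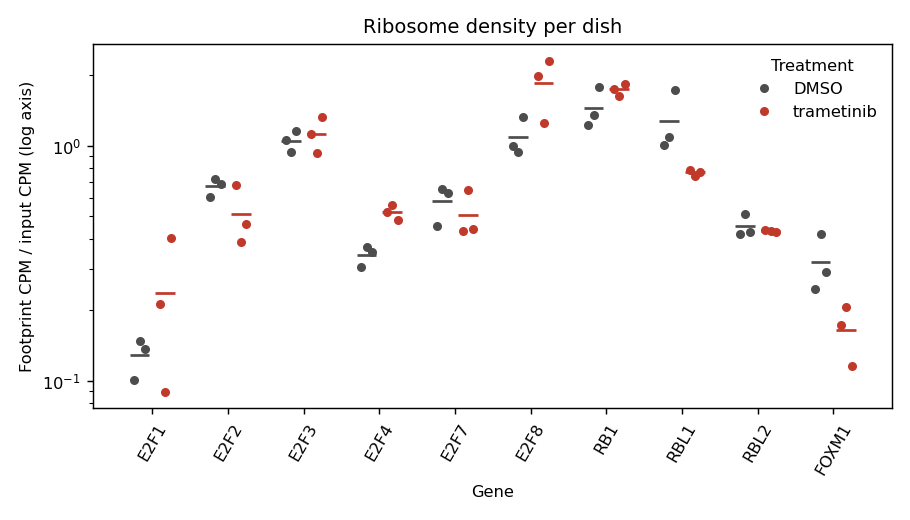
Ribosome density (footprint CPM divided by input CPM of the same replicate, log axis) of the 10 genes. Points are replicates 1 to 3 of DMSO (grey) and trametinib (red) and bars are means of 3. E2F1 is lowest in DMSO, and RB1 has the highest mean, overlapping RBL1 and E2F8. The conditions are separate for E2F4, RBL1 and FOXM1, but 0 of the 10 genes passed the adjusted density test.

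The proteins that work with these factors were examined next. The list held 11 genes, for E2F5 and E2F6, dimer partners, MuvB subunits, MYBL1 and MYBL2. Of these, 4 fell in input, 0 rose and 7 did not pass the test, with a median log2 change of -0.66. In footprints 5 fell, and the median was -0.48. Over all genes tested 15.5% fell in input and 24.4% in footprints. The 4 that fell in both assays were MYBL2 (-3.40 ± 0.30 in input, adjusted p = 1.58e-06), which encodes B-MYB, its relative MYBL1 (-2.61 ± 0.41, adjusted p = 3.18e-04), the MuvB subunit LIN9 (-1.30 ± 0.30, adjusted p = 0.00507) and the dimer partner TFDP1 (-0.79 ± 0.17, adjusted p = 0.00355). LIN52, another MuvB subunit, was called in footprints (-1.38 ± 0.15, adjusted p = 1.20e-04) and not in input (-0.66 ± 0.38, adjusted p = 0.213). TFDP1 and LIN52 were named after their values were seen.

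Of 15 RB kinases, cyclins and inhibitors of cyclin-dependent kinases, 14 were tested and CCND2 was too low. In input 6 fell, 2 rose and 6 did not pass, with a median of -0.44, and in footprints again 6 fell and 2 rose, with a median of -0.38. Over all genes 13.9% rose in input and 24% in footprints, beside which the 2 of 14 that rose do not stand out, and 15.5% and 24.4% fell. Cyclin D1 (CCND1), which links ERK signalling to RB phosphorylation, went from 214 ± 36.4 CPM (SD, n = 3) to 52.2 ± 5.26 CPM in input, a log2 change of -2.03 ± 0.18 (adjusted p = 1.34e-06), and had a log2 change of -2.33 ± 0.12 in footprints. Cyclin E2 (CCNE2) had a log2 change of -3.56 ± 0.59 in input (adjusted p = 4.83e-04). The 2 that rose in both assays, named after their values were seen, were the inhibitor CDKN1C (1.05 ± 0.24 in input, adjusted p = 0.00434) and the kinase CDK6 (0.76 ± 0.26, adjusted p = 0.0449). DESeq2 and limma each called 1 gene of the list higher in input. The inhibitor CDKN2C fell in input (-2.31 ± 0.50, adjusted p = 0.00341) at low counts, 6.47 ± 1.97 CPM in DMSO and 1.25 ± 0.789 CPM in trametinib, and its footprint change of 0.75 ± 0.49 did not pass (adjusted p = 0.234).

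The known targets fell far more uniformly, while over all genes tested 15.5% fell in input and 24.4% in footprints. All 29 G1/S genes controlled by E2F fell in both assays, with medians of -2.71 in input and -3.16 in footprints. Among them the ribonucleotide reductase subunit RRM2 went from 301 ± 36.4 CPM (SD, n = 3) to 12.5 ± 3.55 CPM in input (log2 change -4.59 ± 0.22, adjusted p = 1.06e-08). Cyclin A2 (CCNA2, -4.90 ± 0.24) and the helicase cofactor CDC45 (-4.85 ± 0.38) fell by as much. Of 24 G2/M genes controlled by FOXM1 and B-MYB, 23 fell in both assays, with medians of -3.66 and -4.05. PLK1 (-4.50 ± 0.20 in input), AURKB (-4.85 ± 0.24) and HMMR (-4.41 ± 0.27), which act in mitosis, led these. The exception, named after its values were seen, was the phosphatase CDC25B, with an input change of -0.16 ± 0.20 (adjusted p = 0.566) and a rise in footprints of 0.41 ± 0.11 (adjusted p = 0.0160), lost when DMSO footprint replicate 2 or trametinib footprint replicate 1 or 2 was left out. In ribosome density 0 genes of the G1/S and 0 of the G2/M list passed the edgeR test, with medians of -0.40 and -0.38 against 0.03 for all genes.

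**Figure D4:**
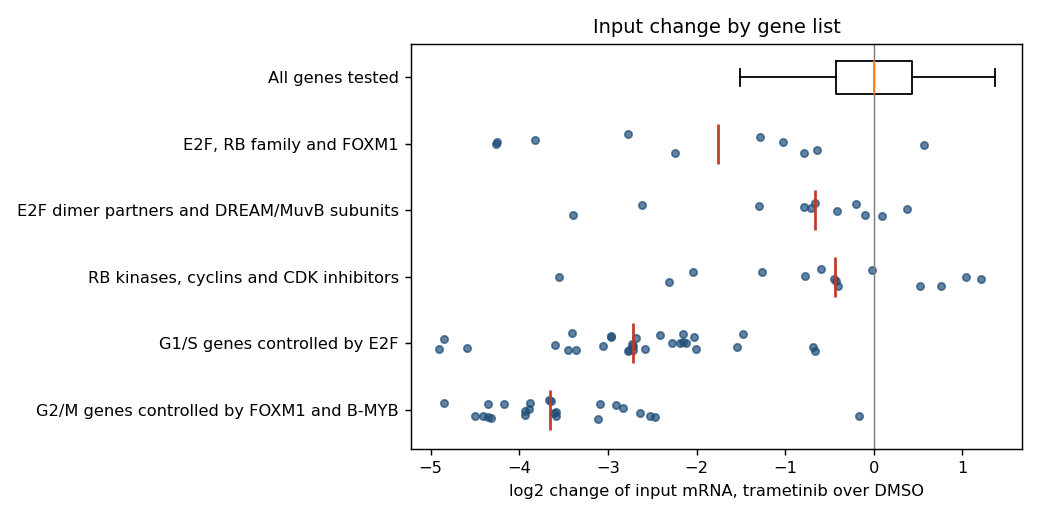
Log2 change of input mRNA, trametinib over DMSO, for each gene (point) of the E2F, RB family and FOXM1 group and of 4 related lists, with the list median as a red line. The box for all 11994 genes tested spans the quartiles and its whiskers the 5th to 95th percentiles. The medians lie at -1.76, -0.66, -0.44, -2.71 and -3.66, against 0.00 for all genes.

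The genes whose log2 CPM pattern, centred within each assay, was most like that of each member over the 12 libraries, by Pearson's r among 8897 genes with a mean of at least 10 CPM, are given as a description. They share libraries and the contrast of the 2 conditions, so r is high throughout, between 0.962 and 0.997. For E2F7 they were PLK1 and UBE2C, for E2F8 CDCA2 and RFC3, and for E2F3 INCENP and OIP5. For E2F1 they were CEP78 and RAD51C, for E2F2 NMU and DLST, and for FOXM1 ACOT7 and SPAG5. E2F4, the member with the lowest values (r = 0.963 and 0.962), was closest to USP31 and NXF1, which likewise changed less in footprints (-0.27 and -0.25) than in input (-0.95 and -0.72). RB1 was closest to HEATR1 and USP1 and RBL1 to RECQL and CCDC138. RBL2 was closest to MEIS3 and TAGLN2, with input log2 changes of 1.37 and 0.80.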

How the data were processed

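Ribo-seq and matched input libraries of HCT116 cells were grouped by the sample labels (3 per group). The authors discarded rRNA and tRNA reads with Bowtie 1.2.2 (version from the submitters' processing notes), mapped the rest to the basic transcripts of Gencode release 38 and counted, per gene symbol, reads inside reading frames of that symbol alone, so reads shared with paralogs are missing. The deposited table holds these raw counts, normalized counts that the authors obtained by dividing by a size factor per library (a signal, used only to check that each equals the count times a constant, to a relative tolerance of 1e-06), and 6 columns of the authors' own fold changes and adjusted p-values, made with DESeq2 1.46.0 and not used. There were 0 unused columns of values per library.

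A gene was tested when 3 or more of the 12 libraries had 10 or more counts (12000, of which 11994 in input) with edgeR 4.0.16 (R 4.3.3), TMM scaling, quasi-likelihood tests and Benjamini-Hochberg adjustment at 0.05. The study used DESeq2. Input and footprints were fitted within their 6 libraries, and ribosome density as the interaction over 12. CPM used scaled library sizes, and coding lengths came from GENCODE release 44 (GRCh38). Intervals are 95%. With 3 against 3 an exact permutation test cannot go below 0.1, so only tests fitted across all genes are given. Alternatives were DESeq2 1.42.0, limma 3.58.1, other filters and scalings, replicate blocks and leaving out each library; leaving out both libraries of DMSO replicate 1 was chosen after seeing the data.

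The tests were checked on simulated data. Deviations from the group means of same-numbered DMSO and trametinib libraries correlated over 7669 genes at 0.12, 0.13 and 0.30 in footprints, above the 0.1 taken as a mark of pairing, and at 0.07, 0.05 and 0.35 in input. All results printed come from fits without a replicate block, and the blocked fits are among the alternatives. Input and footprints of a replicate came from one lysate, per the methods.

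The genes, gene lists and tests were chosen with earlier results of these data known. Within each list the 3 genes with the largest input change among those called, as fixed in the design, were named, plus for each member the 2 genes of most similar pattern.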

Additional observations from a re-analysis of the deposited data

How the results depend on the processing

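All 10 genes kept direction and call in input under 13 of 13 alternatives. In footprints the count of genes that fell was 7 to 9, set by RB1 (-0.17 with library totals, and -0.36 to -0.32 in the omissions of single libraries that ended its call) and by E2F4 (-0.29 without DMSO footprint replicate 1). In ribosome density 0 of the 10 genes were called under any of 22 alternatives per gene. Of 220 values 4 changed sign, all of RBL2 and close to 0. They were 0.0097 with the filter on input libraries alone, 0.11 with library totals, 0.049 without DMSO footprint replicate 2 and 0.017 without trametinib input replicate 3. When single libraries were left out, RBL2 density changes ran from -0.089 to 0.049. The replicate block gave 2015 higher and 2163 lower genes in input, 2888 and 2931 in footprints, and 9 and 100 in ribosome density, and the block by lysate gave 25 and 135 in density; pairing changed no call of the 10 genes. Over all genes, the count higher in ribosome density (6) was 10 with the input filter, 11 with no filter, 21 with library totals, 36 with DESeq2, 21 without both libraries of DMSO replicate 1, and 1 to 12 when single libraries were left out; the count lower (90) was 149 with DESeq2 and 56 to 116 in the omissions. The count higher in input (1670) was 1085 to 1761 in the omissions, lowest without trametinib input replicate 2. Library totals moved the share of calls that were higher from 49.5% to 66.0% in footprints and from 6.25% to 22.1% in ribosome density. The median log2 change of all genes went from 0.0017 to 0.19 in footprints and from 0.033 to 0.17 in ribosome density. The cause of these shifts was not tested. Depth limits E2F1, E2F7 and E2F8 most, with 8 or fewer input counts per trametinib library.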
